A study of Mus musculus with 4 samples.

Results

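Cxcl13 (ENSMUSG00000023078) was followed through the microglia and macrophages of the injured spinal cord. It is 1 of the 53647 genes in the count tables, and it was chosen by its UMIs in myeloid cells of these same counts, which were already known, so its pattern over cell states is given as a description, with no test. CXCL13 is a chemokine that draws cells carrying the receptor CXCR5, mainly B cells and follicular helper T cells, into lymphoid follicles, where stromal cells make it. In the central nervous system it is known as a signal for B-cell entry during infection and autoimmune inflammation, and microglia and macrophages are among its known sources there. Microglia are the resident macrophages of the nervous tissue, and monocyte-derived macrophages join them at a lesion.

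The tissue was the 2 mm segment holding the lesion, taken 28 days after spinal cord injury from aged C57BL/6J mice, an inbred strain. The 2 Anti-CD8 libraries came from mice given a CD8 antibody (CD8 is a co-receptor found on cytotoxic T cells), and the 2 IgG libraries from mice given an IgG antibody. Injury, age and strain were common to both groups, and no uninjured or young tissue was analysed here. Cells of perfused, enzymatically dissociated tissue were cleared of myelin by beads and sequenced from the 3′ end in droplets. Unique molecular identifiers (UMIs) count the captured transcripts, 1 for each. Neither the number of mice behind a library nor the antibody schedule is given in the sources used, so p-values cover libraries and not mice. Those of the edgeR and DESeq2 fits also borrow the spread of other genes. They and their standard errors therefore do not measure a gene's own spread between libraries alone.

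After filtering there were 7481 and 7816 cells in the Anti-CD8 libraries and 6108 and 6290 cells in the IgG libraries. The median depth was 17284 and 18365.5 UMIs per cell in the Anti-CD8 libraries and 21950.5 and 20469.5 in the IgG libraries, so the IgG cells were deeper. The target of the antibody followed the labels. Cd8a was found in 34.3% and 30.0% of T-cell-like cells in the Anti-CD8 libraries, against 80.1% and 66.3% in the IgG libraries. No pair of libraries was a repeat deposit, chi-square per degree of freedom being 30.5 to 48.0 over gene counts. A pair of libraries shared between 5 and 16 cell barcodes, and 70 barcodes stood in more than 1 library.

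Cells fell into 29 clusters, of which 13 were myeloid, with 21395 cells. Names were set by markers, so the marker levels that follow describe the classes and check nothing. The 8 clusters called microglia-like (12128 cells) had a summed level of 10 microglia markers of 5906 and 5140 CPM (counts per 1000000 UMIs) in the Anti-CD8 libraries and 5336 and 5514 CPM in the IgG libraries. Their summed level of 10 monocyte and macrophage markers was 80.5 and 99.4 CPM in the Anti-CD8 libraries and 84.3 and 77.6 CPM in the IgG libraries. In the monocyte/macrophage-like cluster 7 (1664 cells) that sum was 1154 and 977 CPM in the Anti-CD8 libraries and 1000 and 968 CPM in the IgG libraries. Clusters 3 and 8 (3591 cells) led with Spp1, Gpnmb, Fabp4 and Mmp12 and are called Spp1-high myeloid cells. Clusters 1 (2958 cells, led by Saa3, Apoc4 and Ms4a7) and 11 (1054 cells, led by Cxcl9 and Cox6a2) stayed unnamed. Cluster 1 met no marker rule, and cluster 11, with 8 of 10 microglia markers at least 2-fold above the macrophage cluster, was too shallow for a name, with none of those markers among its 10 leading genes. The names were rebuilt from the counts and can differ from the study's own.

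The 250 bases before the start of transcription of Cxcl13 are shown because the gene moved with interferon-induced genes in the comparisons below, and those of Cxcl10 because that chemokine moved with it most closely among the CXC family. Both come from RefSeq on build GRCm38.p6, matched by symbol, whereas the counts were made on GRCm39. Capitals mark matches, found on both strands, to the NF-kappaB-like pattern GGGNNNNNCC, the interferon-response-like pattern GAAANNGAAA, the STAT-like pattern TTCNNNGAA and TATAAA; 2 of the GGGNNNNNCC matches in Cxcl10 overlap each other.
Cxcl13, chr5:95956689-95956938, plus strand: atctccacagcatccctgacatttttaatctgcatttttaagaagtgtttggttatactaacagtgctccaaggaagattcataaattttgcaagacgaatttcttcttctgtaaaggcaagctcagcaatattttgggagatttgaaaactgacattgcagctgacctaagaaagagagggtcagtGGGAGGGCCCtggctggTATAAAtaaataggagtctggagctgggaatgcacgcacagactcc
Cxcl10, chr5:92348890-92349139, minus strand: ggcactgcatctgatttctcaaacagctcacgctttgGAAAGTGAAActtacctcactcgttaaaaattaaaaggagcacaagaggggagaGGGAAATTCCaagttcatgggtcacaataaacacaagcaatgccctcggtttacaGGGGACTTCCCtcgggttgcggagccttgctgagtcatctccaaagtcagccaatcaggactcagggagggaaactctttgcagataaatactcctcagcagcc
In Cxcl13 the window held GGGAGGGCCC at −63 and TATAAA at −46, counted from the start of transcription, and neither GAAANNGAAA nor TTCNNNGAA. In Cxcl10 it held GAAAGTGAAA at −213 and GGGNNNNNCC matches at −159, −104 and −103. Of all 27025 promoter windows of this length, 45.4% held GGGNNNNNCC, 3.04% held GAAANNGAAA, 7.18% held TTCNNNGAA and 13% held TATAAA. A match is a description of the letters and not a site of binding.

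Cxcl13 was a myeloid transcript. It had 20540 UMIs in all, with 5487 and 3558 in the Anti-CD8 libraries and 5703 and 5792 in the IgG libraries, and 98.9% of them lay in the 13 myeloid clusters. Microglia-like cells held 18065 of these UMIs, or 88.0%. At least 1 Cxcl13 UMI was seen in 1836 cells, of which 427 and 480 came from the Anti-CD8 libraries and 487 and 442 from the IgG libraries. In microglia the share of positive cells was 11.9% (exact binomial 95% interval 11.3 to 12.5, 1441 of 12128 cells). In Spp1-high myeloid cells it was 3.79% (3.19 to 4.46) and in monocyte/macrophages 1.80% (1.22 to 2.56, 30 of 1664 cells). These intervals cover counting error only.

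Free RNA in the droplets can give a UMI to a cell that does not make it. In endothelial cells, which should lack Cxcl13, 10 of 1679 cells (0.596%, 0.286 to 1.09) had a UMI, and none of them had more than 1. Median depth was 19194.5 UMIs in microglia and 15197 UMIs in endothelial cells. T-cell-like cells had a share of 0.586%, or 9 of 1537 cells. The intervals of endothelial cells and monocyte/macrophages did not overlap, but among the named myeloid classes the macrophage share was closest to this level.

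Within microglia the share of positive cells differed by state. It was 23.1% (19.9 to 26.6) in cluster 14, which led with the interferon-induced genes Ifit2, Ifit3, Mx1, Oasl1 and Ifi206. It was 22.8% (17.9 to 28.4) in cluster 18, which led with the cell division genes Ube2c, Birc5, Top2a, Cenpf and Pclaf. That cluster counts as microglia because 9 of 10 microglia markers were at least 2-fold above the macrophage cluster, but none of them is among its 10 leading genes, which include the neutrophil gene Camp. The summed level of 6 neutrophil markers in it was 145 and 162 CPM in the Anti-CD8 libraries and 5027 and 218 CPM in the IgG libraries, against 222 to 237 CPM in other microglia. At most 1 of its cells in any library had 3 or more of those markers. Cluster 5, led by the cytokine genes Il12b, Il23a, Areg, Cxcl2 and Tnfsf9, had 14.8%. Cluster 0, led by Crybb1, Ccl4, Ccl3, Slc2a5 and Cxcl10, had 13.4%, and cluster 2, led by Il1b, Il1rn, Arl5c, Nod2 and Cdc42ep2, had 11.2%. Clusters 13, 4 and 10, with 7.68%, 7.04% and 6.81%, were the lowest of the microglia. Of these, cluster 10 led with Gm10790, Crybb1, 0610040J01Rik and the homeostatic purinergic receptor gene P2ry12, cluster 13 with Csmd3, Gm10790 and Ptchd1, and cluster 4 with 1700020L13Rik, 2010320O07Rik and Gm29282.

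Outside microglia the shares were lower. They were 5.79% in cluster 11, 4.68% in cluster 3, 3.79% in cluster 1, 2.34% in cluster 8 and 1.80% in cluster 7. Cluster 3 led with Clec4e, Spp1, Postn, Mmp12 and Adam8. Cluster 8 led with Fabp4, Mmp12, Atp6v0d2 and Gpnmb, genes of lipid-laden and lysosome-rich macrophages. Cluster 7 led with F13a1, Mrc1, Acp5, Sirpb1c and Anxa1. Clusters 3 and 8 were deeper than the microglia of cluster 0, their cells having 29476.5 and 32509 UMIs at the median, against 16344.

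The order was a gradient and not a set of steps. Ranked by the mean over the 4 libraries, all 12 neighbouring pairs of clusters overlapped in their libraries' shares. With each cell thinned to 5000 UMIs, which removes depth, 11 of 12 neighbouring pairs overlapped. The exception was the step between cluster 4 (3.82% ± 1.29, SD, n = 4 libraries) and cluster 3 (1.69% ± 0.731), so that the 8 microglia clusters and cluster 11 all lay above the Spp1-high, macrophage and Saa3-led clusters. That margin was thin, the lowest library of cluster 4 being at 2.734% and the highest of cluster 3 at 2.729%. Cluster 14 stood at 12.5% ± 2.84 and cluster 18 at 9.06% ± 2.53 after thinning. Cluster 18 was the deeper of these, with 31985 UMIs per cell against 20825 in cluster 14, and T-cell transcripts stood in some of its cells. Without the cells that had a T-cell marker, its unthinned share was 22.5% and 25.4% in the Anti-CD8 libraries and 23.3% and 29.3% in the IgG libraries. Few of its cells lacked a neutrophil marker, 17 and 9 in the Anti-CD8 libraries and 9 and 11 in the IgG libraries. Among those the share was lower, at 0% and 11.1% in the Anti-CD8 libraries and 0% and 18.2% in the IgG libraries. The part of neutrophil transcripts in the share of this cluster was not tested.

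**Figure D1:**
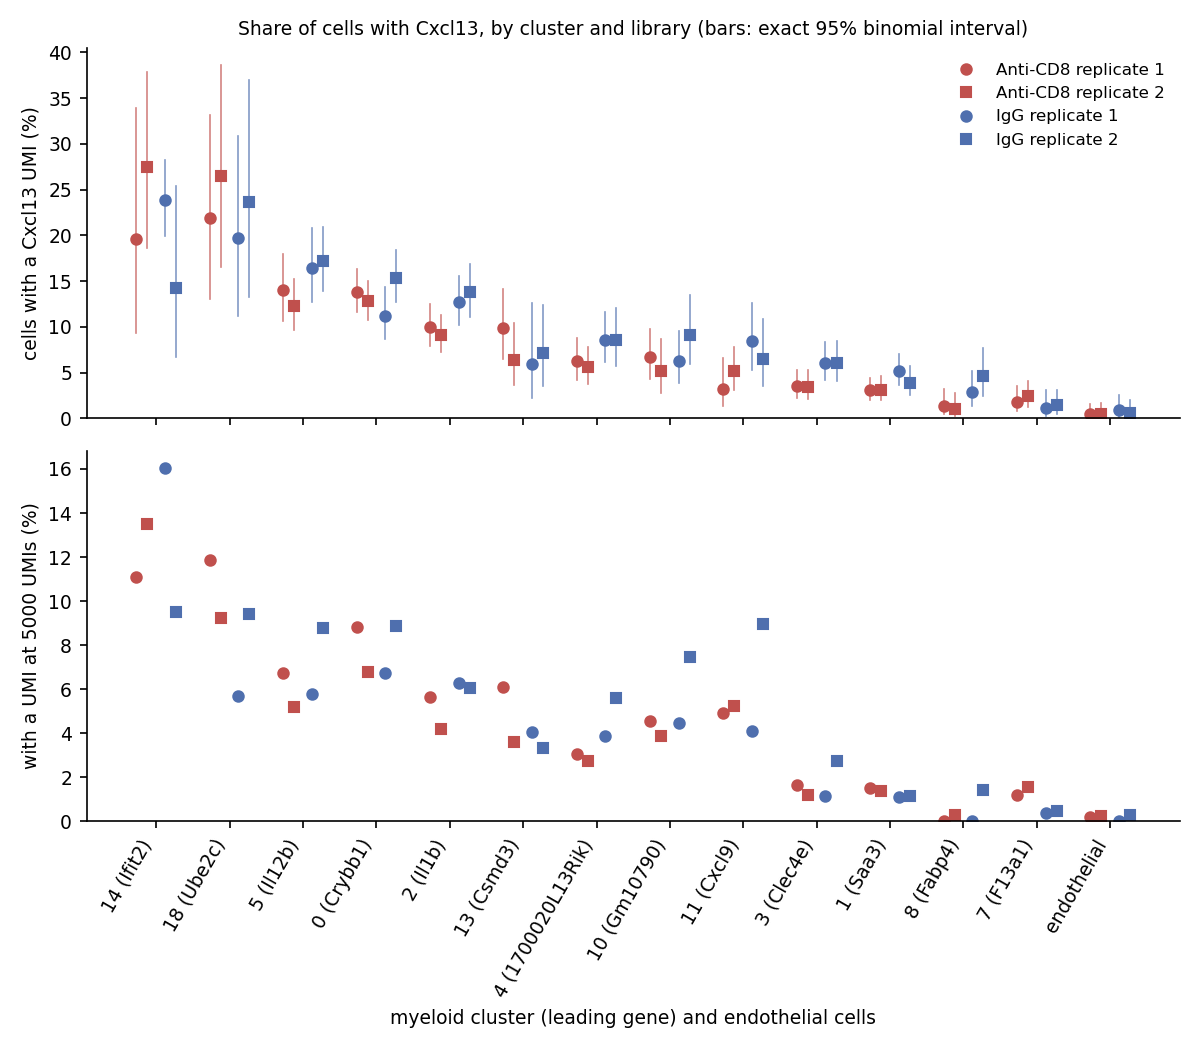
Share of cells with at least 1 Cxcl13 UMI (%, upper panel, bars are exact 95% binomial intervals) and the same share after thinning each cell to 5000 UMIs (%, lower panel), for the 13 myeloid clusters and endothelial cells in the 4 libraries. Clusters 14 and 18 stand highest in the upper panel, with 23.1% and 22.8% of pooled cells, and endothelial cells are near 0.

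The level had a wider spread and a partly different order. Clusters 14, 18 and 0 were still high. Clusters 11 and 10, ranked 9 and 8 by mean share, ranked 4 and 5 by mean level, at 93.6 and 73.2 CPM. That put both above clusters 5 and 2, at 60.8 and 57.8 CPM. Cluster 7 moved from rank 13 to rank 10. In cluster 14 the summed level was 954 and 87.5 CPM in the Anti-CD8 libraries and 190 and 88.7 CPM in the IgG libraries. The highest of these rested on 1 cell, which held 731 of the 787 UMIs of that cluster in Anti-CD8 replicate 1. Cluster 0 had 99.6 and 65.2 CPM in the Anti-CD8 libraries and 112 and 101 CPM in the IgG libraries, with an SD of 20.2 CPM around a mean of 94.4 CPM. Cluster 18 had 216 and 86.4 CPM in the Anti-CD8 libraries and 29.1 and 173 CPM in the IgG libraries, so the groups overlapped there. In the Spp1-high cluster 8 the level was 0.527 and 0.903 CPM in the Anti-CD8 libraries and 0.786 and 8.16 CPM in the IgG libraries. Of 12 neighbouring pairs in the order of mean level, 11 overlapped, and the exception was cluster 2 (57.8 ± 18.2 CPM, SD, n = 4 libraries) above cluster 4 (25.3 ± 12.1 CPM).

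**Figure D2:**
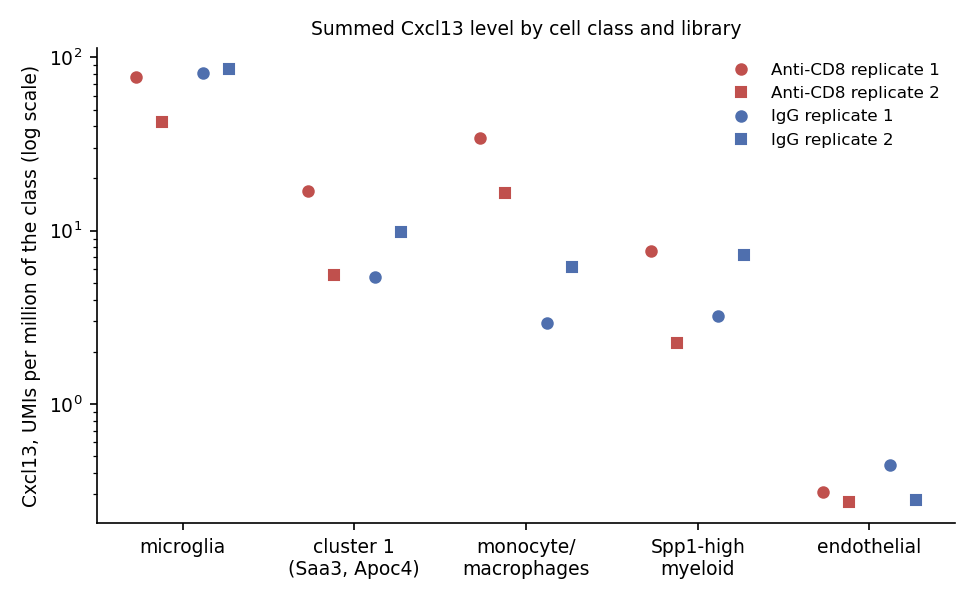
Summed Cxcl13 level (CPM of the class, log scale) in 4 myeloid groups and endothelial cells, 1 point per library. Microglia lie between 42.6 and 85.3 CPM, and endothelial cells lie below all myeloid groups, at 0.273 to 0.445 CPM.

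Cxcl13 was concentrated in few cells. Of the 1441 positive microglia, 575 (39.9%) had 1 UMI, 396 had 2 to 4, 280 had 5 to 19, 155 had 20 to 99 and 35 had 100 or more. The median positive microglial cell had 2 UMIs in each of the 4 libraries, whereas the highest had 731. That cell spent 1.78% of its UMIs on Cxcl13, and the highest such share was 3.52%, in an IgG replicate 2 cell with 527 Cxcl13 UMIs. The 1% of microglia with the most Cxcl13 (121 cells) held 66.5% of the microglial UMIs. Within single libraries this was 67.2% and 66.1% in the Anti-CD8 libraries and 63.0% and 64.5% in the IgG libraries, so the concentration was close in all 4 libraries.

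The spread was large for a gene of this level. In microglia thinned to 5000 UMIs the variance of Cxcl13 over its mean was 30.1, and none of 2953 genes of similar mean had a higher value, the median being 1.13. Cxcl13 was found in 6.42% of these cells, against a median of 25.4% for genes of similar mean. By library the variance over the mean was 20.4 and 15.1 in the Anti-CD8 libraries and 24.8 and 53.2 in the IgG libraries. In Anti-CD8 replicate 1 only Ighm was higher, and in IgG replicate 1 only S100a8 and S100a9.

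Cells of high level came from several states. Of 218 cells with 20 or more Cxcl13 UMIs, 28.9% were in cluster 0, 17.0% in cluster 2, 16.1% in cluster 5 and 10.6% in the interferon cluster 14. They numbered 59 and 43 in the Anti-CD8 libraries and 59 and 57 in the IgG libraries. Among barcodes with Cxcl13, 7.97% and 8.92% in the Anti-CD8 libraries and 5.44% and 6.75% in the IgG libraries had been marked as doublets, against 6.39% and 6.71% of all Anti-CD8 barcodes and 5.16% and 5.31% of all IgG barcodes.

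**Figure D3:**
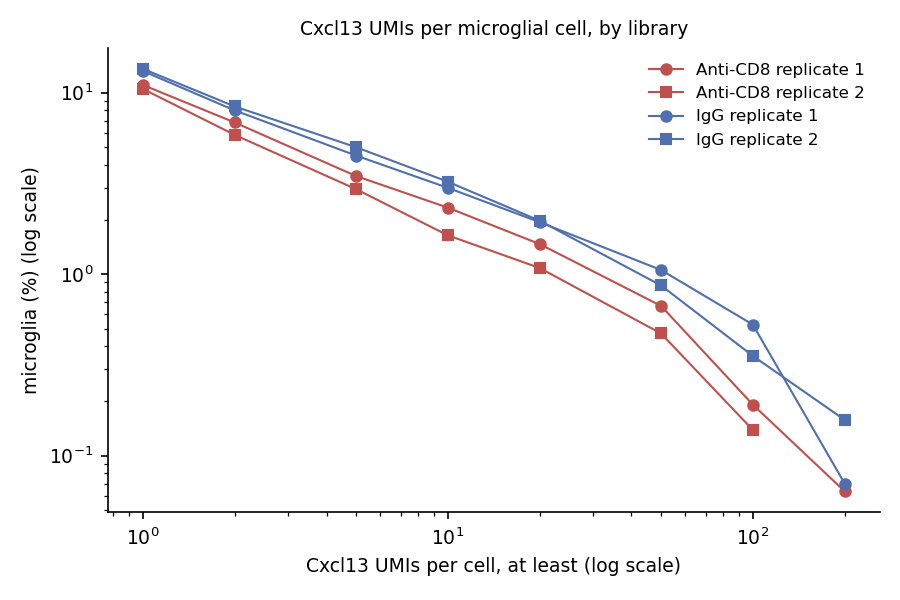
Share of microglia (%, log scale) with at least a given number of Cxcl13 UMIs (log scale), 1 line per library. The Anti-CD8 lines run below the IgG lines from 1 UMI (11.0% and 10.5%, against 13.2% and 13.5%) to 100 UMIs (0.191% and 0.139%, against 0.527% and 0.355%); Anti-CD8 replicate 2 had no cell with 200 UMIs, so its line ends before that step.

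The genes that went with Cxcl13 were sought between positive and negative microglia of the same library and cluster. Each cell was thinned to 5000 UMIs, and as many negative as positive cells were drawn from each cluster and library, giving 195 and 180 positive cells in the Anti-CD8 libraries and 197 and 182 in the IgG libraries. Of 7746 genes tested with edgeR's quasi-likelihood test and library as a block, 52 (0.671%) were higher and 57 (0.736%) lower in Cxcl13-positive microglia at a Benjamini-Hochberg adjusted p under 0.05. DESeq2 called 19 genes, all among these 109, and 8 of the 25 named below, namely Irf7, Ifitm3, Ifi27l2a, Ccl5, Ccl12, Apoc4, Gpnmb and Ms4a7. The counts were 32 higher without Anti-CD8 replicate 2, 32 lower without Anti-CD8 replicate 1, and 22 higher and 16 lower without IgG replicate 1. Higher in positive cells were 8 of 14 type I interferon genes tested and the CC chemokines Ccl12 and Ccl5, and lower were 7 of 20 genes of TREM2-dependent activation. Without cluster 18, a comparison added after seeing the data, 45 genes were higher and 31 lower, and 57 of these 76 were among the 109. Of the 25 named genes, 22 could be tested there. Hmgn3, Oas1a, Naaa, Clec4d and Myof did not pass, and Gpnmb was at −1.08. Positive cells were also deeper before thinning, with a median of 18261.5 and 20350 UMIs in the Anti-CD8 libraries and 23759 and 24530 in the IgG libraries, against 16523 and 18300.5 in negative cells of the Anti-CD8 libraries and 21343 and 21133 in those of the IgG libraries.

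Chemokines were among the clearest differences. Ccl12, a ligand that attracts monocytes, had 365 and 496 CPM in positive cells of the Anti-CD8 libraries and 954 and 492 CPM in those of the IgG libraries, against 276 and 303 CPM and 411 and 257 CPM in negative cells. Positive cells were higher within all 4 libraries, the log2 fold change being 0.85 (SE 0.08, edgeR adjusted p = 1.65e-09). Ccl5, a ligand that attracts T cells, averaged 178 ± 61.1 CPM in positive cells and 98.1 ± 36.1 CPM in negative cells (SD, n = 4 libraries; log2 fold change 0.86, adjusted p = 1.18e-07). Both CC chemokines rose in all 4 libraries. The other 5 CC chemokines tested did not pass, including Ccl3 (0.08) and Ccl4 (0.16), which were higher in positive cells of only 2 and 3 libraries.

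Of 14 other CXC chemokines, 5 were abundant enough to test and they went both ways. Cxcl10, an interferon-induced ligand of CXCR3, rose by 0.65 (adjusted p = 0.00127), although it was higher in 3 of 4 libraries. It had 344 and 344 CPM in positive cells of the Anti-CD8 libraries and 1402 and 453 CPM in those of the IgG libraries, against 344 and 358 CPM and 496 and 260 CPM in negative cells. The IgG libraries carried this difference, and positive and negative cells were level in both Anti-CD8 libraries. Cxcl16, a ligand of CXCR6, rose by 0.38 (adjusted p = 0.000518). The neutrophil attractants Cxcl1 and Cxcl2 fell, by 1.21 and 0.29 on the log2 scale, and Cxcl14 did not pass (−0.24, adjusted p = 0.501).

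Genes of the type I interferon response stood higher in positive cells. Of 18 genes on that list, 14 were tested, all 14 had a fold change above 0, 8 rose, and the median log2 fold change was 0.49, against 0.002 over all genes tested. DESeq2 called 2 of the 14. Irf7, a transcription factor that amplifies the interferon response, had 8.23 and 39.6 CPM in positive cells of the Anti-CD8 libraries and 138 and 27.2 CPM in those of the IgG libraries, against 3.09 and 13.5 CPM and 66.1 and 7.95 CPM in negative cells. Its level differed widely between libraries, but positive cells exceeded negative cells in each (1.24, SE 0.19, adjusted p = 4.19e-05). On the same list Ifi27l2a rose to 362 CPM in positive cells, against 194 CPM in negative cells. Ifitm3, which blocks viral entry and is not on the list, rose to 279 CPM, against 155 CPM. Oas1a (0.94), Isg15 (0.47) and Bst2 (0.43) rose, with positive cells higher in all 4 libraries. Ifit2 (0.73) and Ifit3 (0.52) also rose, although each was higher in positive cells of only 3 libraries. Rsad2 (1.17) rose too, although it was higher in positive cells of only 2 libraries.

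Part of these calls needed cluster 14. Without that cluster, a comparison added after seeing the data, 23 genes were higher and 22 lower, and 31 of these 45 were among the 109. Ifitm3 (0.75, adjusted p = 9.38e-06), Ifi27l2a (0.68), Ccl5 (0.89) and Ccl12 (0.38, adjusted p = 0.00385) stayed past the threshold. Oas1a did not (0.85, adjusted p = 0.344), and Irf7 was too low there to be tested.

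Other genes higher in positive microglia in all 4 libraries included Fcgr4 (0.92), an activating antibody receptor, Pilra (0.89), an inhibitory receptor of myeloid cells, and Cd72 (0.62), a C-type lectin receptor. Cd72 had 198 ± 46.4 CPM in positive cells and 129 ± 19.0 CPM in negative cells (SD, n = 4 libraries). Acod1 (0.49), which makes itaconate in activated macrophages, Naaa (0.88), a lysosomal amidase, Hmgn3 (1.02), a nucleosome-binding protein, Phf11b (0.63), Tafa1 (0.89) and Frmpd4 (1.27) completed the 15 genes of largest rise. Frmpd4, a scaffold protein known from neuronal synapses, was low, at 33.2 CPM in positive cells and 13.7 CPM in negative cells.

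The 10 genes of largest fall were led by Apoc4 and Gpnmb. Gpnmb, a glycoprotein of lysosome-rich macrophages, had 45.3 and 96.1 CPM in positive cells of the Anti-CD8 libraries and 94.1 and 19.3 CPM in those of the IgG libraries, against 102 and 276 CPM and 285 and 146 CPM in negative cells. It was lower in all 4 libraries, by a fitted log2 value of −1.67 (SE 0.13, adjusted p = 9.74e-12). Apoc4, an apolipoprotein, averaged 19.2 ± 7.54 CPM in positive cells and 67.8 ± 20.5 CPM in negative cells (SD, n = 4 libraries; −1.82, adjusted p = 2.85e-09). Ms4a7, a membrane protein typical of macrophages, fell to 33.8 CPM in positive cells, against 82.5 CPM in negative cells. Clec4d (−1.24), a C-type lectin receptor, Mob3b (−1.39), Rnf144b (−1.23), Iqsec1 (−1.20), Myof (−1.15) and the RNA-editing enzyme gene Adarb1 (−1.11) were lower too, all below 45 CPM in either group.

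**Figure D4:**
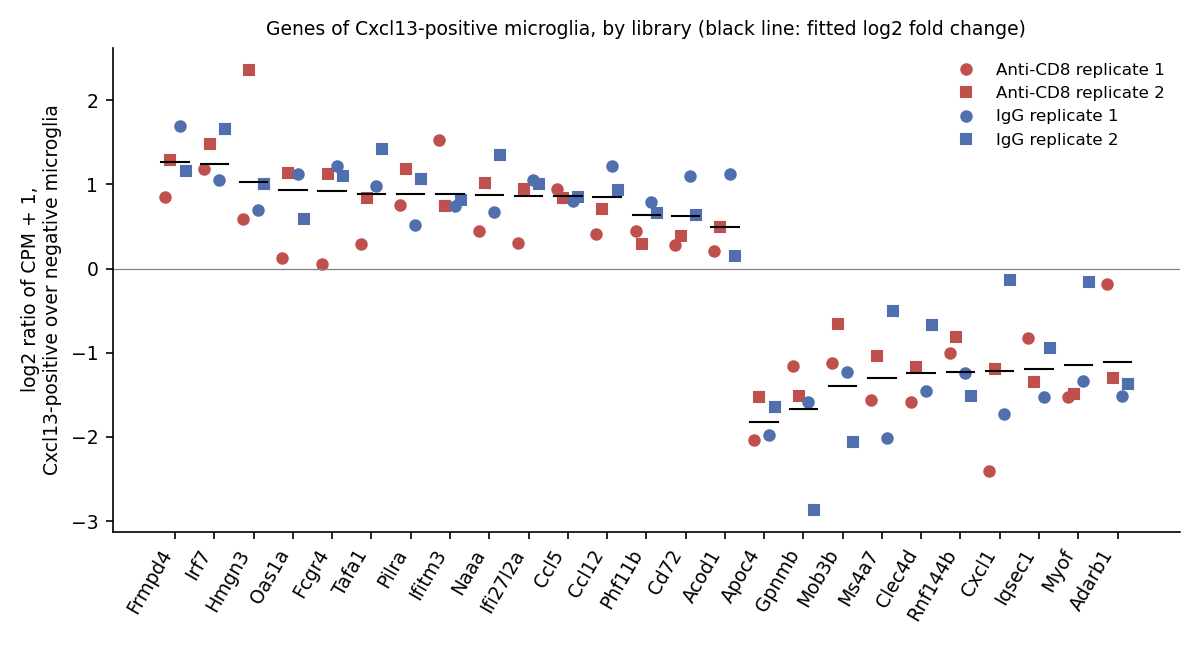
Ratio of Cxcl13-positive over Cxcl13-negative microglia (log2 of CPM + 1) for the 15 genes with the largest rise and the 10 with the largest fall, 1 point per library, black lines being the fitted log2 fold change. All 4 points lie on the same side of 0 for each gene, which the choice of genes required; Irf7 is fitted at 1.24 and Gpnmb at −1.67.

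On a list of 20 genes of the TREM2-dependent activation state, the lipid-responsive state of microglia, all 20 were tested, 7 fell and none rose, with a median of −0.13. An unadjusted p under 0.05 was reached by 12 of the 20, and DESeq2 called 6. The share of all genes at that unadjusted level is not given here, so such counts describe the lists only. Lpl (0.18) and Cst7 (0.14) were above 0 and Trem2 (−0.01) was near it, without passing. Besides Gpnmb those that fell were Lgals3 (−0.75), Igf1 (−0.75), Spp1 (−0.56), Fabp5 (−0.49), Apoe (−0.40) and Cd63 (−0.19). On a list of 12 homeostatic microglia genes, 4 rose, namely Tmem119 (0.46), Olfml3 (0.40), Siglech (0.38) and Selplg (0.29), with a median of 0.12, and DESeq2 called 1. Of 12 immediate early genes, which rise when cells are disturbed during dissociation, none rose and Nr4a1 fell by 0.61. All 12 were below 0, of which DESeq2 called 0 and 3 reached an unadjusted p under 0.05. None of 10 inflammatory cytokine genes tested passed with edgeR or DESeq2, with 3 at an unadjusted p under 0.05, and Il1b (0.17) and Tnf (0.06) were near 0. Of 5 class II antigen-presentation genes tested, 3 were above 0, with a median of 0.14 and 3 at an unadjusted p under 0.05. Only H2-Aa passed, falling by 0.99, with 3 of 4 libraries lower, and DESeq2 called 0 of the 5. None of 5 proliferation genes and none of 8 genes of the lymphoid organiser axis passed with edgeR or DESeq2, with 1 in each list at an unadjusted p under 0.05, and Tnfsf13b, which encodes the B-cell survival factor BAFF, was at 0.46 (adjusted p = 0.254).

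Markers of other myeloid classes moved with this comparison. The summed level of 10 macrophage markers was 21.6 and 52.3 CPM in positive cells of the Anti-CD8 libraries and 25.4 and 36.3 CPM in those of the IgG libraries, against 72.8 and 104 CPM and 105 and 52.7 CPM in negative cells. Most of the 10 markers were at 0 on both sides, 7 to 9 of them in positive sums and 6 to 9 in negative sums. Cd163, Lyve1 and F13a1 were at 0 in all 4 positive and all 4 negative sums. Mrc1 was at 0 in all 4 positive sums and in negative cells of Anti-CD8 replicate 2. Where 9 markers were at 0, the sum was that of Ms4a7 alone, a gene already named among the falls. The sum of 6 Spp1-high markers was 2279 to 3116 CPM in positive cells and 2858 to 4453 CPM in negative cells. The sum of 10 microglia markers was 5738 to 7072 CPM in positive cells and 5046 to 6418 CPM in negative cells. Their part in the result was not tested.

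In Spp1-high myeloid cells the comparison held few cells, with 10 and 8 positive cells in the Anti-CD8 libraries and 6 and 18 in the IgG libraries. Of 605 genes tested, 1 (0.165%) passed, and it was again Gpnmb, which was lower in positive cells, with 690 CPM against 1520 CPM in negative cells (log2 fold change −1.17, edgeR adjusted p = 0.0279). This call was lost when either IgG library was left out and with DESeq2.

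The genes whose level was most like that of Cxcl13 over states were sought by correlation. Over 52 sums, 1 for each of the 13 myeloid clusters in each of the 4 libraries, Pearson's r of log2(CPM + 1) was computed for 10378 genes. The sums share libraries, depth and cell states, so r is a description. The highest values were those of Ccl12 (0.84) and H2-DMa (0.84), a chaperone of class II peptide loading. They were followed by Pilra (0.80), Ppfia4 (0.79), Capza2 (0.78), Cxcl10 (0.77), Limd2 (0.77), Cryba4 (0.76), Ly86 (0.76) and H2-Oa (0.76). Stac2 (−0.77), Nagk (−0.76) and Fcrl1 (−0.75) were lowest.

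Ccl12 ran alongside Cxcl13 across most states. It averaged 791 CPM in cluster 14 and 425 CPM in cluster 0, where Cxcl13 averaged 330 and 94.4 CPM, and 11.4 CPM in cluster 8, where Cxcl13 averaged 2.59 CPM. Cluster 13 was an exception, with 232 CPM of Ccl12 and 23.8 CPM of Cxcl13, against 107 and 57.8 CPM in cluster 2. Gpnmb ran opposite to Cxcl13, with 4171 CPM in cluster 8, 3029 CPM in cluster 7 and 30.5 CPM in cluster 0. The median r was 0.64 over 12 homeostatic microglia genes, 0.55 over 9 CC chemokines, 0.41 over 9 genes of the lymphoid organiser axis, 0.37 over 18 interferon genes and 0.33 over 11 inflammatory cytokine genes. It was −0.35 over 20 TREM2-dependent genes and 0.03 over all genes. These values span microglia and the other myeloid clusters. Within microglia the homeostatic gene P2ry12 did not keep the order of Cxcl13. It averaged 597 CPM in cluster 13 and 94.0 CPM in cluster 5, where Cxcl13 averaged 23.8 and 60.8 CPM. In cluster 0 both were high, with P2ry12 at 426 CPM.

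**Figure D5:**
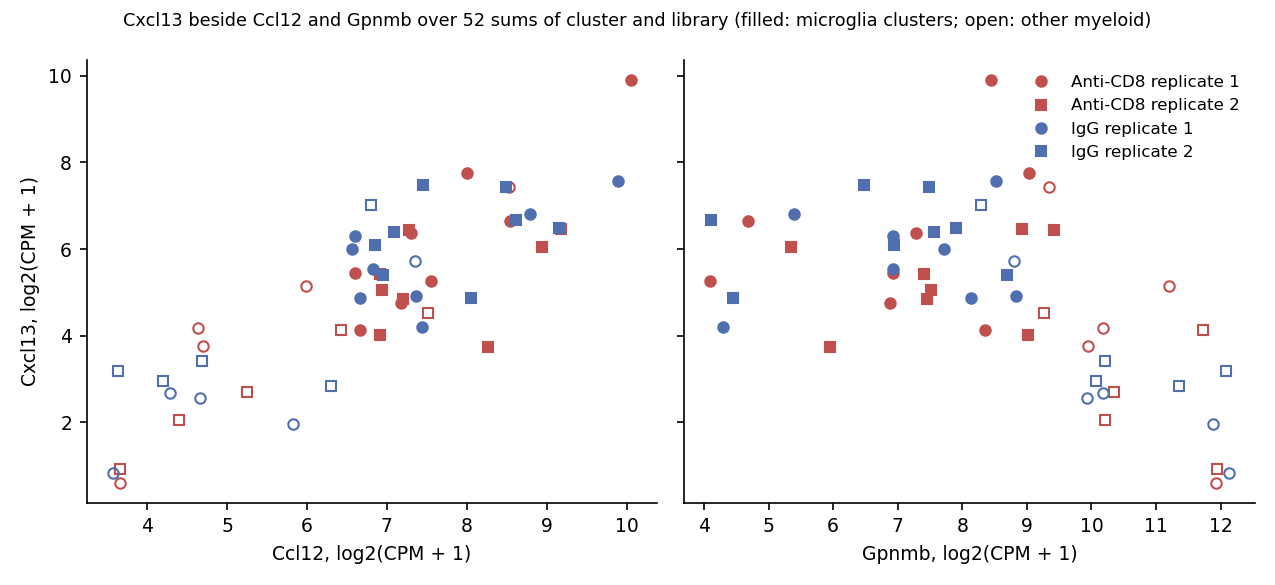
Cxcl13 level (log2 of CPM + 1) against Ccl12 (left) and Gpnmb (right) over the 52 sums of cluster and library, filled points being microglia clusters and open points other myeloid clusters. Sums high in Ccl12 tend to be high in Cxcl13 (r = 0.84), but cluster 13 has 172 to 307 CPM of Ccl12 and 12.4 to 37.4 CPM of Cxcl13. Of the 4 cluster 8 sums, which average the most Gpnmb, 3 are below 1 CPM of Cxcl13 and IgG replicate 2 is at 8.16 CPM.

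The antibody comparison asked whether Cxcl13 changed when CD8 cells were targeted. The share of positive microglia was 11.0% and 10.5% in the Anti-CD8 libraries and 13.2% and 13.5% in the IgG libraries, a difference of −2.58 percentage points between means of 10.8% ± 0.379 and 13.3% ± 0.257 (SD, n = 2 libraries each). The groups did not overlap, but an exact permutation test, two-sided, gave p = 0.333, which is the smallest that 2 against 2 libraries allow. The Anti-CD8 microglia were shallower, with a median of 16641.5 and 18549 UMIs, against 21645 and 21669.5 in IgG microglia. With cells thinned to 5000 UMIs the shares were 6.47% and 5.16% in the Anti-CD8 libraries and 7.13% and 7.36% in the IgG libraries, a difference of −1.43 points.

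The summed level in microglia was 77.3 and 42.6 CPM in the Anti-CD8 libraries and 81.6 and 85.3 CPM in the IgG libraries. The fitted log2 fold change was −0.54 (SE 0.23, edgeR adjusted p = 0.548), in a fit in which 6 of 18077 genes, or 0.0332%, passed. With no expression filter it passed at a similar size (−0.53, adjusted p = 9.44e-12). The mean number of UMIs per positive cell was 12.6 and 8.29 in the Anti-CD8 libraries and 14.4 and 15.2 in the IgG libraries. Leaving out Anti-CD8 replicate 1 gave −1.01, leaving out Anti-CD8 replicate 2 gave −0.17, and the value was −0.60 (adjusted p = 0.484) without the cell of most Cxcl13 in each library. Without the 35 cells of 100 or more UMIs, a choice of cells by Cxcl13 itself, it was −0.15 (adjusted p = 0.806). The interferon cluster 14 was unevenly spread, with 46 and 91 cells in the Anti-CD8 libraries and 423 and 63 in the IgG libraries, and it held 18.1% and 5.75% of microglial Cxcl13 UMIs in the Anti-CD8 libraries and 33.5% and 2.52% in the IgG libraries. Without it the level was 64.3 and 41.3 CPM in the Anti-CD8 libraries and 63.4 and 85.3 CPM in the IgG libraries, which overlap, while the fitted fold change was about as large (−0.55, adjusted p = 0.400).

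The 13 myeloid clusters were also fitted on their own, an analysis added after seeing the data, and in 3 of them, all microglia, Cxcl13 passed the threshold and was lower. In cluster 10 it had 26.1 and 27.7 CPM in the Anti-CD8 libraries and 62.7 and 176 CPM in the IgG libraries (log2 fold change −2.17, edgeR adjusted p = 0.00431, with 0.0691% of genes past the threshold). In cluster 4 it had 16.6 and 15.2 CPM in the Anti-CD8 libraries and 28.1 and 41.2 CPM in the IgG libraries (−1.16, edgeR adjusted p = 0.00357, with 0.349% of genes past it). In cluster 2 it had 42.7 and 42.3 CPM in the Anti-CD8 libraries and 78.4 and 67.8 CPM in the IgG libraries (−0.83, edgeR adjusted p = 0.0112, with 0.328% of genes past it). In the other 10 clusters the fold change lay between −2.60 in cluster 8 and 2.35 in cluster 7, and none passed. The cluster 10 level in IgG replicate 2 rested largely on 1 cell, which had 527 Cxcl13 UMIs. Cluster 10 held 14.8% of the 5205 microglial Cxcl13 UMIs of that library. Without IgG replicate 2 the cluster 10 value was −1.27. Cells of 100 or more Cxcl13 UMIs were more often in IgG libraries, with 0 and 0 in the Anti-CD8 libraries and 1 and 1 in the IgG libraries in both cluster 10 and cluster 4, and in cluster 2 with 0 and 2 in the Anti-CD8 libraries and 6 and 2 in the IgG libraries. Leaving them out, which by construction moves the values upward, gave −0.87 (adjusted p = 0.0410) in cluster 10, −0.06 (0.947) in cluster 4 and 0.23 (0.673) in cluster 2.

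In monocyte/macrophages Cxcl13 was higher in both Anti-CD8 libraries, on few cells and without passing the test. Positive cells were 8 and 13 in the Anti-CD8 libraries (1.83% and 2.43%) and 3 and 6 in the IgG libraries (1.09% and 1.45%). The level was 34.3 and 16.4 CPM in the Anti-CD8 libraries and 2.91 and 6.17 CPM in the IgG libraries, a log2 fold change of 2.35 (SE 0.38) that did not pass (edgeR adjusted p = 0.351, with 0.00808% of genes past the threshold). It did pass when no expression filter was used (adjusted p = 2.34e-29) and with any 1 library left out (1.77 to 3.01). In Anti-CD8 replicate 1, 168 of the 249 UMIs came from 1 cell. Without the cell of most Cxcl13 in each library the fold change was 2.03 (adjusted p = 0.370), and without the single cell of 100 or more UMIs it was 1.52 (adjusted p = 0.666). The 30 positive macrophages had a summed microglia marker level of 3031 CPM, against 2019 CPM in negative macrophages, and a macrophage marker level of 1296 CPM, against 1014 CPM. Their Spp1-high marker level was 5249 CPM, against 9941 CPM, and Lyve1 and Ly6c2 were at 0. The part of microglial transcripts in this result was not tested.

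The fitted antibody effect differed between microglia and macrophages when all cells were kept, although neither effect passed on its own. The difference of the log2 fold changes, microglia minus macrophages, was −2.88 (SE 0.20, edgeR adjusted p = 1.04e-05, with 0.0289% of genes past the threshold), in a test added after seeing the data with library as a block. Without the cells of 100 or more Cxcl13 UMIs, most of them IgG in microglia and the macrophage one Anti-CD8, it was −1.73 (adjusted p = 0.244). In Spp1-high myeloid cells the level was 7.67 and 2.25 CPM in the Anti-CD8 libraries and 3.21 and 7.27 CPM in the IgG libraries, so the groups overlapped (−0.13, adjusted p = 0.976, with 0.0199% of genes past the threshold), and the sign turned without Anti-CD8 replicate 2 (0.52) or IgG replicate 2 (0.58). The difference of effects between microglia and Spp1-high cells was −0.40 (adjusted p = 0.955, with 0.0172% past the threshold), but 0.22 without Anti-CD8 replicate 1, 0.09 without IgG replicate 1 and −1.03 (adjusted p = 0.0184) without IgG replicate 2.

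The other genes of the pathway gave no call by edgeR in microglia, on the lists of CXC and CC chemokines, type I interferon genes, TREM2-dependent genes and the lymphoid organiser axis. All 18 interferon genes were below 0, with a median log2 fold change of −1.38, against 0.0001 over all genes tested, and 14 at an unadjusted p under 0.05, but DESeq2 called 0. Without IgG replicate 1, which held 423 of the 623 cells of cluster 14, 5 of the 18 were above 0 and the median was −0.11. Without cluster 14 itself, 0 of the 18 were above 0 and the median was −0.44. In Spp1-high myeloid cells 0 of 18 were above 0 (median −0.51), with 12 at an unadjusted p under 0.05 by edgeR and 0 called by DESeq2. Among monocyte/macrophages 4 of 18 were above 0 (median −0.22). The source of this shift was not tested. In microglia DESeq2 called 2 of 11 CC chemokines, with 3 at an unadjusted p under 0.05 by edgeR, and 4 of 20 TREM2-dependent genes, with 5. It called 0 of 10 other CXC chemokines, with 2, and 0 of 13 genes of the lymphoid organiser axis, with 3. The shares over all genes, by DESeq2 and at an unadjusted p under 0.05, are not given here, so these counts describe the lists only.

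The receptor of CXCL13 was sparse. Cxcr5 was found in 2.18% and 1.82% of T-cell-like cells in the Anti-CD8 libraries and 2.61% and 6.22% in the IgG libraries. The share in endothelial cells, which should lack it, was 1.75% and 3.10% in the Anti-CD8 libraries and 2.68% and 4.56% in the IgG libraries, and the exact intervals of both cell types overlapped in each library. The median depth of T-cell-like cells was 6196 and 7023 UMIs in the Anti-CD8 libraries and 7306 and 7192 in the IgG libraries, and that of endothelial cells 14428 and 13803 and 17821 and 16721. The dendritic-cell-like cluster 22 led with Igkc, Jchain, Il1r2, Cd209a and Ighm, so antibody genes stood there beside the dendritic marker Cd209a. Its Cxcr5 share was 9.78% and 12.7% in the Anti-CD8 libraries and 13% and 14.6% in the IgG libraries, at a median of 13775 to 16950 UMIs. Cells with at least 3 of 5 B-cell markers numbered 19 and 0 in the Anti-CD8 libraries and 2 and 2 in the IgG libraries, and 12 of the 19 lay in cluster 22. Cxcr5 was found in a larger part of these few cells, 7 of the 19 and 1 of the 2 in each IgG library. The receptor Cxcr3, bound by Cxcl10, was found in 40.6% and 39.5% of T-cell-like cells in the Anti-CD8 libraries and 54.4% and 40.9% in the IgG libraries.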

How the data were processed

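Droplet-based 3′ RNA sequencing was deposited as UMI counts per gene and barcode for 4 libraries, made by the authors with Cell Ranger 7.1.0 on GRCm39, per the submitters' processing notes. The deposited counts are raw. There were 29956 barcodes. Barcodes under 500 UMIs or 300 genes, or above 20% mitochondrial UMIs, were dropped, and 1758 barcodes scored as doublets were removed (511 and 562 in the Anti-CD8 libraries, 332 and 353 in the IgG libraries), at an assumed rate of 0.8% per 1000 cells, leaving 27695 cells. Clustering used scanpy 1.11.5 with leidenalg 0.10.2 (3000 variable genes, 30 components, 15 neighbours, resolution 1). A cluster was named where its class's markers averaged a log2 fold of at least 1.5 over other cells and led the next class by 0.3, or, among myeloid clusters, as microglia where at least 5 of 10 microglia markers stood at least 2-fold above the macrophage cluster, otherwise as Spp1-high where at least 3 of its markers were among the 10 leading genes (cluster 3). A cluster whose libraries were more than 3 times as deep at the median as its own cells, with no marker of its class among the 10 leading genes, stayed unnamed (cluster 11). Symbols carried by more than 1 gene ID, 81 in all, were kept apart by ID.

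Sums of counts over the cells of a class in a library entered edgeR 4.0.16 in R 4.3.3 (TMM scaling, expression filter, quasi-likelihood test, Benjamini-Hochberg adjustment over all genes tested, threshold 0.05). Positive and negative cells were thinned to 5000 UMIs, matched by cluster and library, and tested with library as a block; Cxcl13 itself was left out. Sums of fewer than 20 cells were not used for likeness. CPM are counts per 1000000 UMIs of a sum, with 1 CPM added before logarithms for likeness and plots. Named genes were the 15 of largest rise and 10 of largest fall past the threshold, of 1 sign in all 4 libraries and at 10 CPM or more, the 10 of highest r, and the members of largest change on each list. The genes called lowest in likeness, and those given without cluster 14, were chosen after their values were seen. Cxcl13 and all lists were chosen with earlier results of these data known. Alternatives were DESeq2 1.42.0, RLE size factors, no expression filter, doublets kept, thinning to 2000 UMIs, at least 2 UMIs for a positive cell, all negative cells, a changed block and each library left out. Added after seeing the data were fits without cluster 14 or 18, without cells of 100 or more Cxcl13 UMIs or the top cell of each library, fits of single clusters, and the difference between microglia and macrophages. On simulated data with 200 changed genes, the fit of microglia recovered 184 genes at a log2 fold of 2 by antibody (17779 genes) and 183 between positive and negative cells (7577 genes). False calls numbered 19 and 8 in these fits. The fit of the difference between microglia and Spp1-high cells recovered 171 genes, with 24 false calls. Intervals are exact binomial at 95% and cover counting error only.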

Additional observations from a re-analysis of the deposited data

Results flagged for a closer look

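With all cells kept, the fitted antibody effect on Cxcl13 differed between microglia and monocyte/macrophages by a test of the difference itself. That test was added after seeing the data. The summed level was 77.3 and 42.6 CPM in Anti-CD8 microglia and 81.6 and 85.3 CPM in IgG microglia, and 34.3 and 16.4 CPM in Anti-CD8 macrophages and 2.91 and 6.17 CPM in IgG macrophages. The difference of the log2 fold changes, microglia minus macrophages, was −2.88 (edgeR adjusted p = 1.04e-05), although neither effect passed on its own. It rests on 30 positive macrophages, and 168 of the 249 UMIs in macrophages of Anti-CD8 replicate 1 came from 1 cell. Without cells of 100 or more Cxcl13 UMIs, a choice of cells by Cxcl13 itself, it was −1.73 (adjusted p = 0.244).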

How the results depend on the processing

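The lower share of positive microglia in Anti-CD8 libraries (−2.58 points) kept its direction in every alternative run, between −2.85 and −1.43. Without an expression filter edgeR passed the microglial effect (−0.53, adjusted p = 9.44e-12) and the macrophage effect (2.35, adjusted p = 2.34e-29). With each library left out in turn the microglial effect ran from −1.01 to −0.17 and the macrophage effect from 1.77 to 3.01, past the threshold each time; a lone library is then assumed to vary like the other group. The effect in Spp1-high cells ran from −1.27 to 0.58, with 0.58 when IgG replicate 2 was left out and 0.52 when Anti-CD8 replicate 2 was. The difference between microglia and Spp1-high cells was 0.22 without Anti-CD8 replicate 1, 0.09 without IgG replicate 1 and −1.03 (adjusted p = 0.0184) without IgG replicate 2. The difference between microglia and macrophages ran from −3.52 to −2.54 with a library left out and was −1.73 without cells of 100 or more UMIs, and without these cells the effect in cluster 2 was 0.23.

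Genes higher and lower in positive microglia (52 and 57) were 11 and 8 with DESeq2, 19 and 14 at 2000 UMIs, 185 and 118 against all negative cells, 22 and 24 at 2 or more UMIs, 31 and 31 with doublets kept, 23 and 22 without cluster 14, 45 and 31 without cluster 18, and 22 to 49 and 16 to 44 with a library left out. Of the 19 DESeq2 calls all 19 were among the 109, and none of the 25 named genes reversed. In Spp1-high cells the count of 1 became 0 with DESeq2, at 2000 UMIs and at 2 or more UMIs, 5 with no filter, 33 against all negative cells, and 0 to 2 with a library left out. Without the library term (no replicate block) calls in microglia were 0 and 2, and in Spp1-high cells 0.

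Same-numbered libraries share only a number: deviations from group means correlated at 0.00559 in microglia, 0.160 in Spp1-high cells and −0.0776 in macrophages. With that replicate block the effects were −0.59, −0.18 and 2.27. The cause of these changes was not tested. Only 30 macrophages were positive.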

Other observations

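In some clusters outside the myeloid cells most Cxcl13 UMIs lay in 1 barcode, and these were picked after their values were seen. In the shallow unnamed cluster 20 (256 cells, median 2300 UMIs), 1 barcode held 110 of 117 Cxcl13 UMIs. Among ependymal-like cells, which line the central canal, 1 barcode held 20 of 27 UMIs, among neuron-like cells 1 held 15 of 21, and among dendritic-like cells 1 held 23 of 27. The unnamed cluster 11 led with the interferon-gamma-induced chemokine gene Cxcl9. That gene was uneven there, at 17.7 ± 33.9 CPM (SD, n = 4 libraries), and averaged 66.8 CPM in cluster 14. Cluster 11 had 172 and 22.2 CPM of Cxcl13 in the Anti-CD8 libraries and 51.9 and 128 CPM in the IgG libraries. Single cells held 123 of 185 UMIs in Anti-CD8 replicate 1 and 121 of 156 in IgG replicate 2. Its median was 3264.5 UMIs per cell, and 453 of its 1054 cells had the 5000 UMIs needed for thinning, of which 5.52% were positive, against 6.42% of thinned microglia. Endothelial, T-cell-like and NK-cell-like cells had at most 3 UMIs in any cell.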
